A study of Mus musculus with 24 samples.

Results

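The NMDA receptor subunits measured here were Grin2a, Grin2b, Grin2c, Grin2d, Grin3a and Grin3b, 6 of the 18194 genes on the array. Their probe sets were taken by gene symbol alone: every probe set annotated to 1 of these genes was taken, which gave 12 of 45101 probe sets. The subunits, and the gene and marker lists used below, were chosen with earlier results of these data known. The samples were 24 pools of microdissected thalamic tissue from wild-type C57BL/6 mice, with 1 array per pool. Each pool held 1 nucleus from littermates of the same treatment. The nuclei were the VB (the ventrobasal complex, the somatosensory relay of the thalamus, which contains the VPM) and the dLGN (the dorsal lateral geniculate nucleus, the visual relay). Tissue was taken at birth (P0) or at P4 from control mice or from embBE mice, whose eyes had been cauterized on both sides in utero, before retinal axons reach the thalamus. There were 3 arrays per group, except the dLGN at P0 with 2 control and 4 embBE arrays. Nothing states how many pups entered a pool or what the pair of numbers in each label (39_3, for example) stands for, and p-values measure the spread between pools.

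NMDA receptors are glutamate-gated channels that let calcium in when glutamate and a co-agonist, glycine or D-serine, are bound and the cell is depolarized enough to relieve a magnesium block. An obligatory subunit is joined by GluN2 subunits (encoded by Grin2a to Grin2d), which bind glutamate and set how fast the channel closes, or by GluN3 subunits (Grin3a and Grin3b), which bind glycine and lower calcium entry and magnesium block. In rodent brain Grin2b and Grin2d are known for early expression, Grin2a for a rise after birth in the forebrain, Grin2c for the cerebellum and thalamus of older animals, Grin3a for a peak in the first postnatal weeks and Grin3b for motor neurons. The comparisons ask whether the transcripts for these subunits differ after loss of the eyes, between birth and P4, and between the somatosensory and the visual nucleus.

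Values are log2 signals as deposited, so a difference of 1 is a doubling. A probe set's brightness depends on its own sequence and cannot be set against that of another gene. The brightest probe set stood for each gene. It lay above 89.6% of all probe sets for Grin2b (1457003_at), above 88.6% for Grin3a (1438866_at) and above 77.2% for Grin2d (1442328_at). For Grin2c it lay above 38.5%, for Grin3b above 31.2% and for Grin2a above 10%. The files used here hold no detection calls. For Grin2a, Grin2c and Grin3b it is thus not known whether these signals lie above background.

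**Figure D1:**
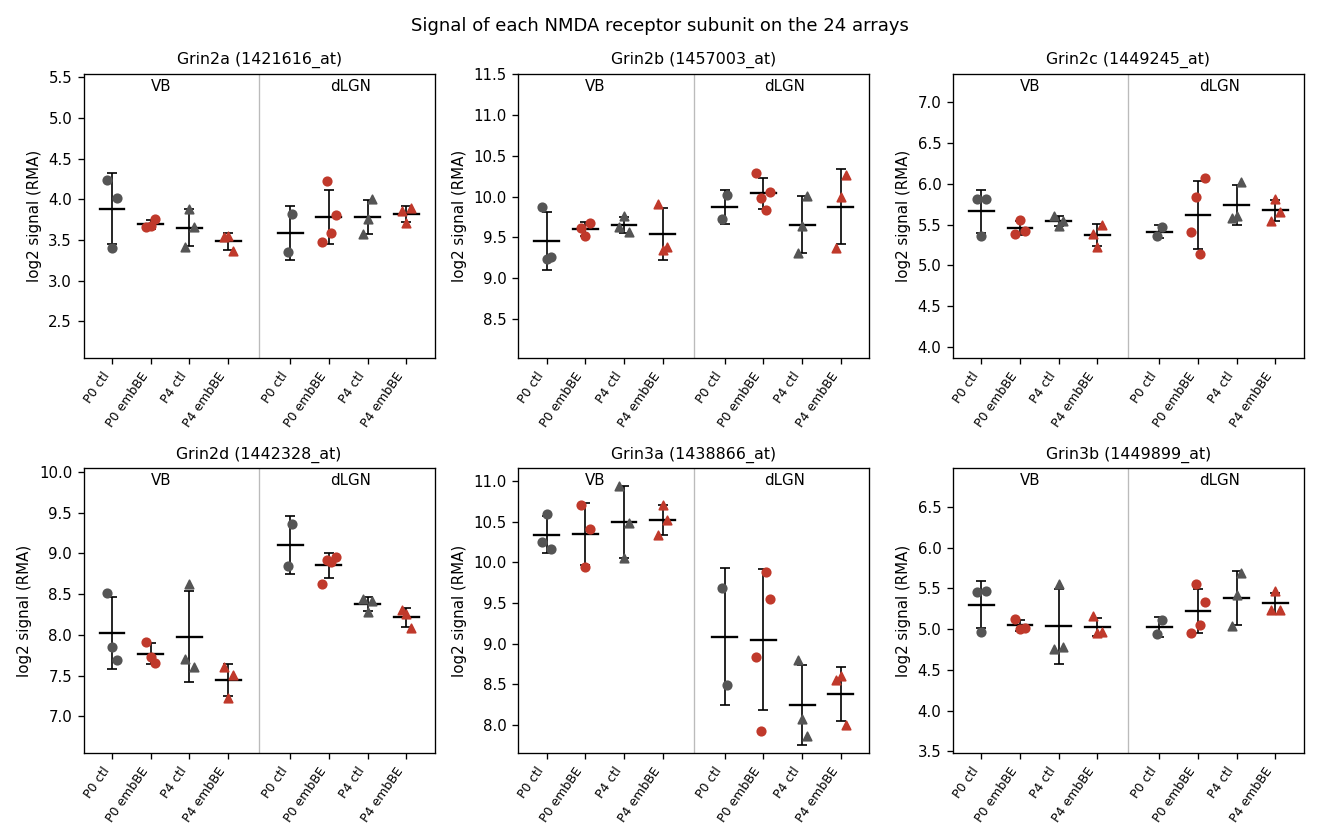
Log2 signal (RMA, vertical axis) of the brightest probe set of each subunit on the 24 arrays, by group (horizontal axis; ctl, control), with VB groups left and dLGN groups right of the grey line. Points are arrays (grey control, red embBE, circles P0, triangles P4), long bars group means and error bars SD, and all panels span the same number of log2 units. Every VB array lies above every dLGN array for Grin3a, and every dLGN P0 array lies above every dLGN P4 array for Grin2d.

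Grin3a, the GluN3A subunit gene, was the member with the largest differences, and they lay between the nuclei. In the control VB its log2 signal was 10.25, 10.60 and 10.17 at P0 and 10.94, 10.06 and 10.48 at P4. In the embBE VB it was 10.70, 9.94 and 10.41 at P0 and 10.34, 10.71 and 10.52 at P4. In the control dLGN it was 9.68 and 8.49 at P0 and 8.80, 8.07 and 7.87 at P4, and in the embBE dLGN it was 8.84, 7.93, 9.88 and 9.55 at P0 and 8.55, 8.60 and 8.0 at P4. The lowest VB array (9.94) was above the highest dLGN array (9.88), so the nuclei did not overlap. The same was true of 83 of the 18194 genes with VB higher (0.456%).
Ordered by mean, the 4 VB groups stood together at 10.52 ± 0.19 (SD, n = 3, embBE P4), 10.49 ± 0.44 (control P4), 10.35 ± 0.38 (embBE P0) and 10.34 ± 0.23 (control P0). They were followed by the dLGN groups at 9.08 ± 0.84 (control P0, n = 2), 9.05 ± 0.86 (embBE P0, n = 4), 8.38 ± 0.33 (embBE P4, n = 3) and 8.25 ± 0.49 (control P4, n = 3). The step from the VB to the dLGN was the 1 step between neighbours in this order that exceeded the SDs of both groups. The drop of 0.67 from the embBE dLGN at P0 to that at P4 was smaller than the SD at P0.
At P4 Grin3a was 4.74-fold higher in the VB of controls (log2 difference 2.25, 95% interval 1.42 to 3.07, limma adjusted p = 0.00172) and 4.40-fold higher in embBE mice (2.14, 1.31 to 2.96, adjusted p = 0.00215). Beside these calls, 1.73% of all genes were called higher in the VB of controls at P4 and 4.33% in embBE mice. At P0 the difference was 1.30 in embBE mice (2.46-fold, interval 0.53 to 2.07, adjusted p = 0.0374, with 3.53% of genes called higher) and 1.26 in controls (interval 0.34 to 2.18, adjusted p = 0.239, not called; 0.555% of genes were called higher). The nuclei are bulk tissue, so more transcript per cell and more cells that carry the transcript cannot be told apart.
On this probe set the P4 difference was called in every alternative fit, as it was with the mean of the 3 probe sets of the gene. The embBE difference at P0 lost its call without VB array 35_3, 39_3 or 39_4 or dLGN array 39_2 or 39_3, when it lay between 0.93 and 1.52. The control difference at P0, with 2 dLGN arrays, lay between 0.67 and 1.86 when single arrays were left out.

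VB and dLGN arrays that carry the same label numbers gave 11 differences, and Grin3a was higher in the VB in 11 of 11. At P0 these differences were 0.57 (control 35_1), 1.69 (control 39_5), 1.15 (embBE 35_3), 2.01 (embBE 39_3) and 0.53 (embBE 39_4). At P4 they were 2.14, 1.99 and 2.60 in controls and 1.79, 2.11 and 2.51 in embBE mice. The P4 values lay closer together than the P0 values. Over both days the mean was 1.74 ± 0.70 (SD, 11 pairs, exact 2-sided sign-flip test, unadjusted p = 0.000977, the smallest that 11 pairs can give). This test was added after the values were seen. The share of all genes with the same sign in 11 of 11 was not counted. For P0 alone the mean was 1.19 (5 pairs, exact p = 0.0625) and for P4 alone 2.19 (6 pairs, exact p = 0.0312), again the smallest values possible.
The gap between the nuclei was wider at P4 than at P0 by 0.98 in controls (95% interval −0.25 to 2.22, adjusted p = 0.771) and by 0.84 in embBE mice (−0.29 to 1.97, adjusted p = 1). A change of this gap with age was therefore not called. In this contrast 4 genes (0.022%) passed in controls and 10 (0.055%) in embBE mice.

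**Figure D2:**
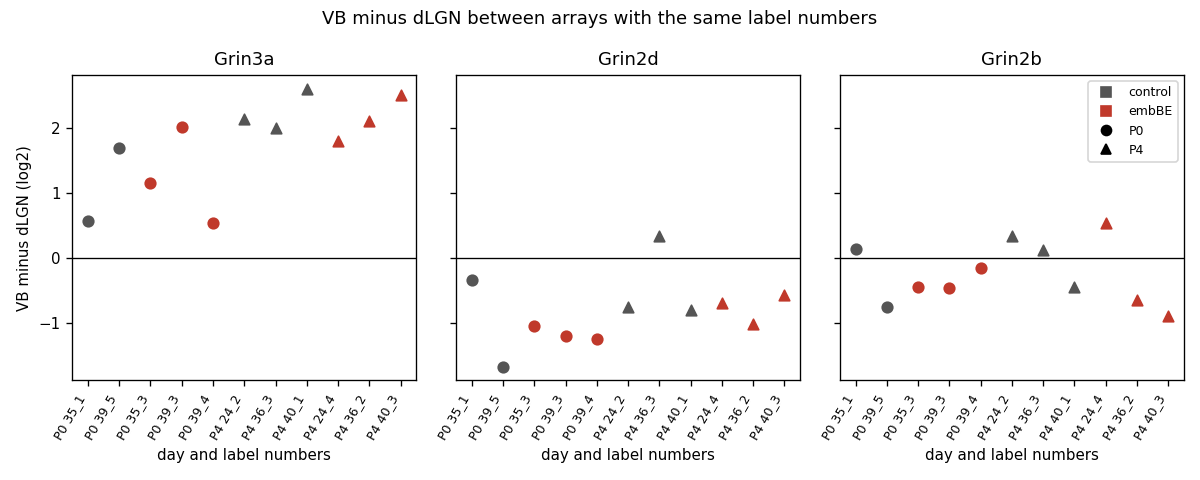
VB minus dLGN difference in log2 signal (vertical axis) between arrays with the same label numbers (horizontal axis, with the day) for Grin3a, Grin2d and Grin2b. Grey is control, red embBE, circles P0 and triangles P4. All 11 points lie above 0 for Grin3a, 10 of 11 lie below 0 for Grin2d, and the points for Grin2b lie on both sides.

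Grin3a has 2 further probe sets. The second, 1436575_at, nearly as bright, repeated the pattern: VB minus dLGN was 1.20 and 2.22 in controls at P0 and P4 and 1.18 and 1.94 in embBE mice, with adjusted p over all probe sets of 0.266, 0.000951, 0.0465 and 0.00283. The dimmest, 1458378_at, was also brighter in the VB, by 0.94, 0.58, 0.14 and 0.59 in the same order, but passed in none of the 4 comparisons (lowest adjusted p = 0.0799).
The 3 genes whose pattern over the 24 arrays was closest to that of Grin3a were Sertad4 (Pearson r = 0.961), Mbp (0.95) and Pde1c (0.945). Points in these correlations share the array, the nucleus and the amplification, and r describes likeness only. Pde1c, which encodes a calmodulin-dependent phosphodiesterase, was higher in the VB by 2.55 and 3.21 in controls at P0 and P4 and by 2.21 and 3.54 in embBE mice.
Mbp, the gene for myelin basic protein, belongs to the oligodendrocyte markers, of which 5 of 6 were measured. It was higher in the VB by 1.23, 1.57, 0.74 and 1.03 in controls at P0 and P4 and embBE mice at P0 and P4 (adjusted p = 0.0208, 0.00046, 0.0505 and 0.0132). Olig1 and Pdgfra were called higher in the VB in embBE mice at P0 (1.37 and 0.77), and no other marker of this list was called between nuclei. The mean of the 5 markers lay between 8.35 and 9.11 on the VB arrays and between 7.70 and 8.70 on the dLGN arrays, and Mog, a marker of mature oligodendrocytes, was near the bottom of the range in both nuclei (3.10 to 3.78). The part of these cells in the Grin3a difference was not tested.

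The arrays also differed in the spread of their signals, whose SD over all probe sets was 2.22 to 2.42 in the VB and 2.16 to 2.41 in the dLGN. Of the 5 arrays with the lowest SD (2.24 or less), 4 were from the dLGN (embBE 39_3 and 35_3 at P0, embBE 36_2 and control 40_1 at P4). The excess of the 3′ over the 5′ signal of actin, which grows where RNA is degraded or copied in part, was 1.95 to 4.29 log2 units in the VB and 2.21 to 4.27 in the dLGN. In embBE mice it was larger on every dLGN array (3.06 to 4.27) than on every VB array (1.98 to 2.55), and its part in the differences between nuclei was not tested. The embBE 39_3 and control 40_1 dLGN arrays also held the lowest Grin3a signals in the dLGN, 7.93 and 7.87. With this SD as a covariate, Grin3a was higher in the VB by 1.38 (control P0, adjusted p = 0.0071), 1.99 (control P4, 4.68e-05), 0.83 (embBE P0, 0.0672) and 1.54 (embBE P4, 0.0029).
Of the 6 markers of relay neurons, 4 (Slc17a6, Tcf7l2, Rora and Lef1) lay above at least 91.4% of all probe sets by their mean. Slc17a6, the vesicular glutamate transporter of relay cells, lay between 11.84 and 13.32 in the VB and between 11.09 and 13.02 in the dLGN, and Tcf7l2 between 11.77 and 12.80 over both. Rorb, a nuclear receptor gene of relay neurons, was higher there by 1.59 to 1.77 in all 4 comparisons (largest adjusted p = 0.0109), with a signal of 8.20 to 9.46 in the VB and 6.01 to 7.79 in the dLGN. Gbx2 was weaker, at 6.20 to 8.40 in the VB and 4.57 to 9.05 in the dLGN, and Rorb was the 1 relay marker called between nuclei. The mean of the 6 overlapped at P0 (10 to 10.67 in the VB, 9.66 to 10.73 in the dLGN). At P4 it was higher on every VB array (10.17 to 10.52) than on every dLGN array (9.57 to 10.07), as was Grin3a. The single markers did not all go this way. Over both days the VB median was above the dLGN median for Rorb (8.81 and 7.21), Gbx2 (7.23 and 5.99) and Slc17a6 (12.76 and 12.09). It was below for Rora (11.31 and 12.07), Lef1 (9.96 and 10.09) and Tcf7l2 (12.38 and 12.44). The part of relay neurons in the Grin3a difference was not tested. Gad1, a marker of GABAergic cells, ranged from 4.20 to 9.97 in the VB and from 6.01 to 9.51 in the dLGN.

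Grin2d, the GluN2D subunit gene, which gives slowly closing channels, ran the other way and was higher in the dLGN. In the control VB its log2 signal was 8.52, 7.85 and 7.69 at P0 and 7.70, 8.62 and 7.61 at P4. In the embBE VB it was 7.91, 7.73 and 7.66 at P0 and 7.60, 7.23 and 7.51 at P4. In the control dLGN it was 8.85 and 9.36 at P0 and 8.44, 8.28 and 8.41 at P4, and in the embBE dLGN 8.63, 8.92, 8.90 and 8.96 at P0 and 8.30, 8.26 and 8.08 at P4. At P0 all 6 dLGN arrays were above all 6 VB arrays, as for 457 of the 18194 genes (2.51%). At P4 a single VB array, control 36_3, broke this order and lay above every dLGN array, and the others lay below the dLGN range.
The order of the group means ran from the dLGN at P0 (control 9.11 ± 0.36, n = 2; embBE 8.85 ± 0.15, n = 4) through the dLGN at P4 (control 8.38 ± 0.09, embBE 8.21 ± 0.12) to the VB (control P0 8.02 ± 0.44, control P4 7.98 ± 0.56, embBE P0 7.77 ± 0.13, embBE P4 7.45 ± 0.19, all n = 3). Neighbours in this order differed by more than the larger SD of the pair at 3 steps: from P0 to P4 in the dLGN, between control and embBE dLGN at P4, and from the embBE VB at P0 to that at P4.
Grin2d was lower in the VB by 1.09 at P0 in controls (log2 difference −1.09, 95% interval −1.61 to −0.57, limma adjusted p = 0.0263) and by 1.08 in embBE mice (−1.08, −1.52 to −0.65, adjusted p = 0.0037), a level in the dLGN about 2.1 times that in the VB (2.13-fold and 2.12-fold). At P4 it was lower in embBE mice (−0.76, −1.23 to −0.30, adjusted p = 0.0411), whereas the difference in controls was −0.40 (−0.87 to 0.06, adjusted p = 0.473). Of all genes, 1.01%, 1.48%, 3.92% and 4.11% were called lower in the VB in control P0, control P4, embBE P0 and embBE P4. Without VB control array 36_3 the control difference at P4 was −0.72 (adjusted p = 0.042).
By label numbers, Grin2d was higher in the dLGN in 10 of 11 pairs, with a mean VB minus dLGN difference of −0.82 ± 0.53 (exact 2-sided sign-flip test, unadjusted p = 0.00293, added after the values were seen). Here too the share of all genes with such a count of pairs is not known. The exception was control 36_3 at P4 (0.34), and the largest difference was that of control 39_5 at P0 (−1.67).

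The 2 VB arrays with the highest Grin2d signals, control 35_1 at P0 (8.52) and control 36_3 at P4 (8.62), were also the 2 VB arrays with the narrowest spread of signals (SD 2.22 and 2.26). With the SD as a covariate Grin2d was lower in the VB by values of −1.14 (control P0, adjusted p = 0.00117), −0.29 (control P4, 0.415), −0.88 (embBE P0, 0.00421) and −0.49 (embBE P4, 0.172). The call in controls at P0 was lost without VB array 35_2 or 39_5 or without either dLGN array, when the difference lay between −1.34 and −0.84, with the mean of both probe sets (−0.47) and with cyclic loess (−1.06, adjusted p = 0.0585). That in embBE mice at P4 was lost without any 1 of its 6 own arrays, without VB embBE array 39_3 or 39_4 of P0 or dLGN control array 36_3 of P4, and with the arrays centred on their medians (−0.64, adjusted p = 0.0612).
The second probe set of Grin2d, 1421393_at, was brighter than 45.5% of all probe sets and did not repeat the pattern: its VB minus dLGN differences were 0.15, 0.16, −0.32 and −0.47 in controls at P0 and P4 and embBE mice at P0 and P4 (lowest adjusted p = 0.13).
None of the 5 markers of GABAergic cells was called between nuclei in any of the 4 comparisons. At P4 the mean of the 5 was lower on every VB array (5.38 to 5.93) than on every dLGN array (6.01 to 6.45). At P0 it lay between 5.25 and 7.35 in the VB and between 5.78 and 7.19 in the dLGN. There every VB array but control 39_5 lay below every dLGN array. Gad1 differed by −1.69 to −2.56 with adjusted p from 0.135 to 0.685. In the middle of each group that mean was 5.32 to 5.62 in the VB and 6.06 to 6.58 in the dLGN. The highest VB value, 7.35, was that of control array 39_5 at P0, where Grin2d was 7.69. The highest dLGN value, 7.19, was also that of control array 39_5 at P0, where Grin2d was highest of all (9.36). VB array 35_1, high in Grin2d, stood at 5.62. Astrocyte markers (5 of 5 measured) had a mean of 8.24 to 8.80 in the VB and 8.51 to 9.08 in the dLGN at P0, and of 9.34 to 9.69 and 9.13 to 9.56 at P4. Of these, Aqp4, an astrocyte water channel gene, was called lower in the VB at P0, where Grin2d was called lower too (−2.70 in controls, adjusted p = 0.00101, and −2.82 in embBE mice, adjusted p = 4.43e-05), but not at P4 (−0.17 and 0.23). Slc1a3 was called higher in the VB in embBE mice at P0 (0.62), and at P4 Slc1a2 was called higher (0.79) and Gfap lower (−0.89) there. The part of GABAergic cells or astrocytes in the Grin2d difference was not tested.
The closest patterns to Grin2d over the 24 arrays were those of Pip5k1c (r = 0.947), which encodes a phosphoinositide kinase, the potassium channel gene Kcnh2 (0.931) and Zfp385a (0.920). Kcnh2 was lower in the VB by values of −0.83, −0.52, −1.34 and −0.54 in the same order of comparisons.

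**Figure D3:**
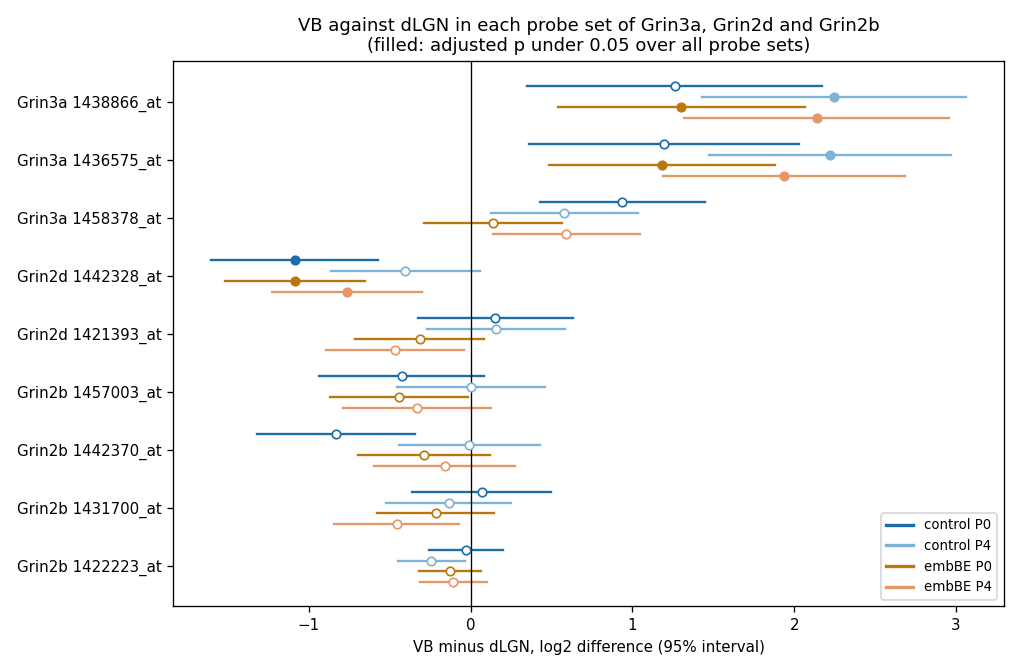
VB minus dLGN log2 difference (horizontal axis, points, with 95% intervals as lines) of every probe set of Grin3a, Grin2d and Grin2b (vertical axis, brightest first for each gene) in controls and embBE mice at P0 and P4. Filled points have a limma adjusted p under 0.05 over all probe sets. The 2 bright Grin3a probe sets lie well to the right of 0, the bright Grin2d probe set lies to the left, and the dimmer Grin2d probe set lies on both sides.

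Between P0 and P4 no member passed the adjusted threshold in either nucleus. Of all genes, 2.32% rose and 1.45% fell in the control VB, 2.69% and 0.731% in the embBE VB, 0.253% and 0.308% in the control dLGN, and 0.632% and 0.39% in the embBE dLGN. The median over the 6 members was −0.09, −0.07, −0.01 and −0.06 in that order, beside −0.03, −0.04, 0.04 and 0.01 over all genes.
The member closest to a call was Grin2d in the dLGN. All 6 P4 arrays (8.08 to 8.44) lay below all 6 P0 arrays (8.63 to 9.36), as was so for 531 genes (2.92%). The difference was −0.73 in controls (95% interval −1.10 to −0.37, adjusted p = 0.101) and −0.64 in embBE mice (−0.95 to −0.34, adjusted p = 0.0546). Over both treatments the mean difference was −0.69, the most extreme of the 350 ways to permute the days within treatments (exact 2-sided permutation test, p = 0.00286, adjusted p = 0.0343 over 6 members in 2 nuclei). This test was chosen after the values were seen. It restates that the days did not overlap, as for the 531 genes, and adds no support of its own. With the array SD as a covariate the changes were called in both treatments (−0.74, adjusted p = 0.0113, and −0.64, adjusted p = 0.00526). The dimmer probe set did not repeat the difference (0.12 in controls and in embBE mice). In the VB Grin2d differed by −0.05 and −0.32 (adjusted p = 0.948 and 0.58). The difference between nuclei in the change of Grin2d with age was 0.69 in controls (−0.01 to 1.38, adjusted p = 0.727) and 0.32 in embBE mice (adjusted p = 1), so it was not called.
Grin3a differed between P0 and P4 in the dLGN by −0.84 in controls (95% interval −1.95 to 0.28, adjusted p = 0.694) and by −0.67 in embBE mice (−1.60 to 0.27, adjusted p = 0.641). The dLGN groups overlapped, and without control array 39_5 the first value was −1.43, without 35_1 −0.24. In the VB the differences were 0.15 and 0.17.
Grin2b, the GluN2B subunit gene of the early receptor, differed by 0.20 and −0.05 in the VB and by −0.22 and −0.16 in the dLGN, all within intervals that hold 0.
Grin2a, Grin2c and Grin3b, the 3 dim members, differed by −0.26 to −0.02 in the VB and by 0.04 to 0.36 in the dLGN (lowest adjusted p = 0.513).

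A replacement of Grin2b by Grin2a is the known course in maturing forebrain, but it could not be followed here, since the one Grin2a probe set lay near the bottom of the range on every array (3.35 to 4.24). The log2 signal of Grin2a minus that of Grin2b is therefore given as a description of the 2 signals only. In the VB it was −5.56 ± 0.30 at P0 and −6.00 ± 0.18 at P4 in controls and −5.90 ± 0.06 and −6.06 ± 0.29 in embBE mice (SD, n = 3). In the dLGN it was −6.29 ± 0.12 (n = 2) and −5.87 ± 0.14 (n = 3) in controls and −6.26 ± 0.43 (n = 4) and −6.06 ± 0.48 (n = 3) in embBE mice. The mean change with age was −0.30 in the VB and 0.31 in the dLGN, and with the other 3 Grin2b probe sets it was −0.37 to −0.07 in the VB and 0.05 to 0.44 in the dLGN. No change of either transcript relative to the other is read from these values.

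Grin2b stood between the nuclei without a call. Its log2 signal ran from 9.23 to 9.91 in the VB, with a median of 9.59, and from 9.31 to 10.29 in the dLGN, with a median of 9.99. In embBE mice at P0 it was 9.61, 9.51 and 9.68 in the VB and 10.29, 9.98, 9.83 and 10.06 in the dLGN. The VB minus dLGN difference there was −0.44 (95% interval −0.87 to −0.01, adjusted p = 0.162). It was −0.43 in controls at P0 (adjusted p = 0.708), 0.00 in controls at P4 (0.998) and −0.33 in embBE mice at P4 (0.259). Grin2b was lower in the VB in 7 of 11 label pairs (mean −0.24 ± 0.47, exact sign-flip p = 0.116).
In order of mean, the groups ran from the embBE dLGN at P0 (10.04 ± 0.19, n = 4) and the other dLGN groups (9.88 ± 0.46 in embBE mice at P4, 9.87 ± 0.21 in controls at P0) to the control VB at P4 (9.65 ± 0.10), the control dLGN at P4 (9.65 ± 0.35) and the remaining VB groups (9.60 ± 0.09, 9.55 ± 0.32 and 9.45 ± 0.36). The step from the control dLGN at P0 to the control VB at P4 was slightly over the larger SD of the pair, and the other neighbours differed by less.
The second probe set was lower in the VB by 0.83 in controls at P0 (log2 difference −0.83, adjusted p = 0.125) and differed by −0.29 to −0.01 in the other 3 comparisons. The patterns closest to Grin2b belonged to Trip11 (r = 0.881), Supt6 (0.864) and Sf3b2 (0.858), the last 2 genes with general roles in transcription and splicing.
The dim members differed between the nuclei by 0.25 to 0.30 in controls at P0 and by −0.35 to −0.08 in the other 3 comparisons (lowest adjusted p = 0.219). The closest patterns to Grin2a were those of Psg21, a pregnancy-specific glycoprotein gene, Aqp2, a kidney water channel gene, and Csrp1 (r = 0.898, 0.881 and 0.874). For Grin2c they were those of Cacng6, Gpa33 and Trim60 (0.889, 0.882 and 0.878). For Grin3b they were those of Defa39, an intestinal defensin gene, Castor1 and Oxnad1 (0.901, 0.896 and 0.888). The dim members also resembled each other (r = 0.65 to 0.79).

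**Figure D4:**
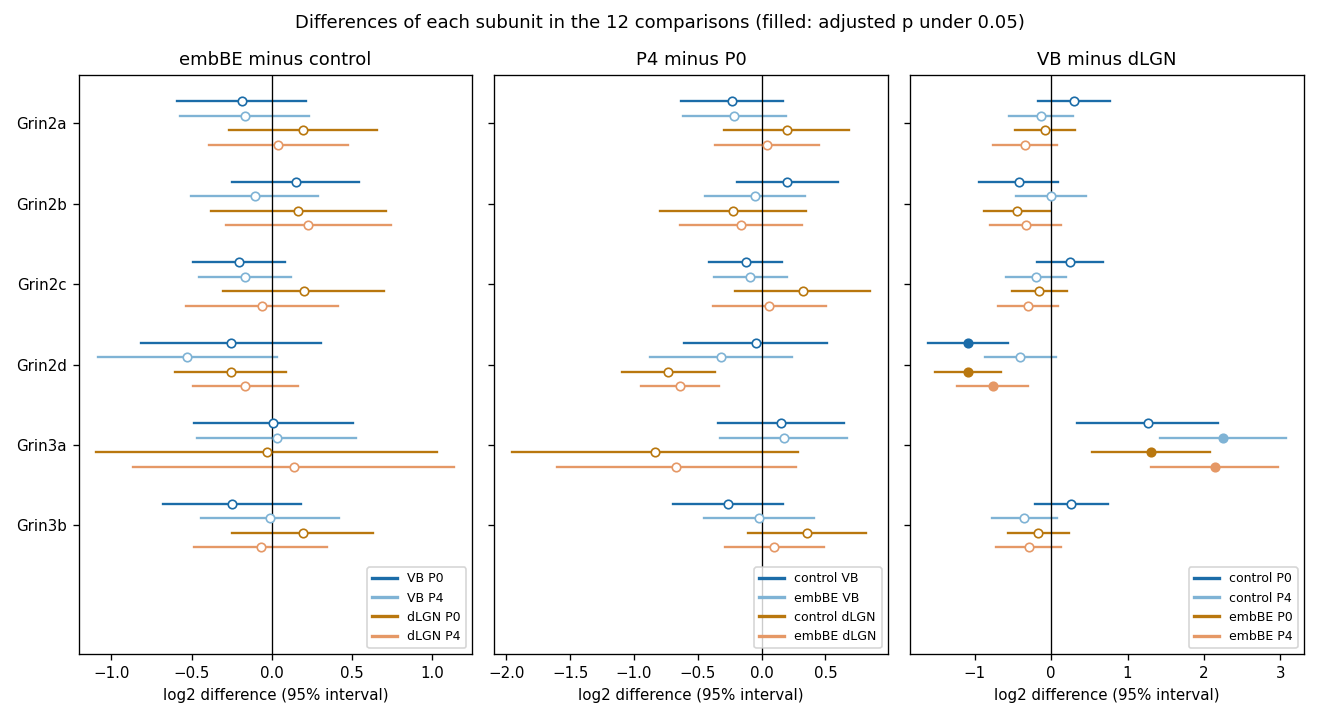
Log2 differences (horizontal axes, points, with 95% intervals as lines; the 3 panels have their own scales) of the 6 subunits (vertical axis) for embBE minus control, P4 minus P0 and VB minus dLGN, 4 comparisons each. Filled points have a limma adjusted p under 0.05. Only Grin2d and Grin3a hold filled points, all 6 of them in VB minus dLGN.

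After loss of the eyes no member was called on its brightest probe set. At the study's threshold, a fold of at least 1.5 with an unadjusted p under 0.05, 0 of 6 passed in each nucleus on each day, against 0.726% of all genes in the VB at P0, 0.159% in the VB at P4, 0.445% in the dLGN at P0 and 0.198% in the dLGN at P4. With limma and adjustment 0% of genes passed in any of the 4 comparisons, while 1219, 724, 433 and 236 genes had an unadjusted p under 0.05. None of these were members.
The widest difference was that of Grin2d in the VB at P4. Its log2 signal was 7.70, 8.62 and 7.61 in controls and 7.60, 7.23 and 7.51 in embBE mice. The difference was −0.53 (95% interval −1.08 to 0.03, adjusted p = 0.751), −0.20 without control array 36_3 and −0.19 with the array SD as a covariate. Without control array 24_2 or 40_1, it met the study's threshold (down to −0.71). The second Grin2d probe set, 1421393_at, was also lower in the VB of embBE mice, by values of −0.45 at P4 (95% interval −0.75 to −0.14, adjusted p = 0.765) and −0.29 at P0, and the fold at P4 was under the study's threshold. In the dLGN it differed by 0.18 on both days. On the brightest probe set Grin2d lay lower in embBE mice by values of −0.26 in the VB at P0, −0.26 in the dLGN at P0 and −0.17 in the dLGN at P4.
For Grin3a the 4 differences lay between −0.03 and 0.14. In the VB the intervals ran from −0.49 to 0.50 at P0 and from −0.47 to 0.52 at P4, which on this probe set leaves out a 1.5-fold change in either direction. On the nearly equally bright 1436575_at they ran from −0.45 to 0.59 and from −0.68 to 0.35, which does not. In the dLGN they ran from −1.09 to 1.03 and from −0.86 to 1.14, wide enough to hold a doubling. The dimmest Grin3a probe set, 1458378_at, was higher in the embBE dLGN at P0 by 0.61 (95% interval 0.20 to 1.01, adjusted p = 0.869), which met the study's threshold before adjustment, and differed by −0.19 to −0.08 in the other 3 comparisons. For Grin2b they lay between −0.11 and 0.23, with intervals from −0.50 to 0.74 in all. Its second probe set, 1442370_at, was higher in the embBE VB at P0 by 0.55 (95% interval 0.11 to 0.99, adjusted p = 0.722), just under a fold of 1.5, and differed by 0.01 to 0.20 in the other 3 comparisons. The dim members differed by −0.25 to 0.20.
The effect of eye loss was not called to differ between P0 and P4 or between the nuclei for any member, nor for any gene (0%). For Grin2d the difference between nuclei was 0.00 at P0 and −0.36 at P4, and for Grin3a it was 0.04 and −0.11.

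Of 36 genes around the receptor (the other subunit gene Grin1, scaffolds, kinases, co-agonist transporters, trafficking proteins and genes known to act on subunit expression), 32 were measured. Grin1 was not among those measured. Between the nuclei 2, 4, 3 and 5 of the 32 were called higher in the VB and 1, 1, 4 and 1 lower, in controls at P0 and P4 and embBE mice at P0 and P4. Among all genes 0.555%, 1.73%, 3.53% and 4.33% were called higher and 1.01%, 1.48%, 3.92% and 4.11% lower in the same order. The median over the 32 was 0.01, 0.14, −0.05 and 0.06, beside 0.03, −0.03, −0.06 and −0.09 over all genes.
Slc7a10, which encodes the Asc-1 transporter for glycine and D-serine, the receptor's co-agonists, was higher in the VB in all 4 (0.80, 0.89, 0.54 and 0.98, adjusted p from 0.000827 to 0.0359). So was Bdnf, the neurotrophin gene (0.73, 0.91, 0.92 and 1.44, adjusted p at most 0.0208). Neto1, which encodes an auxiliary protein of NMDA and kainate receptors, was higher in controls at P4 (0.97) and in embBE mice at P0 (0.71) and P4 (1.07). Nrg1, a ligand of ErbB receptors, was higher at P4 in both (0.67 and 0.71), and Actn2, an actin linker that binds the receptor, in embBE mice at P4 (0.39). Their group means were low, at 5.01 to 5.96 for Nrg1 and 6.16 to 6.56 for Actn2. Without detection calls it is not known whether these signals lie above background.
Reln, the gene for the secreted protein reelin, was lower in the VB in all 4 (−2.02, −1.60, −1.33 and −2.07, adjusted p from 0.00246 to 0.0303). In embBE mice at P0 Camk2a, the kinase that binds GluN2B (−1.03), Grm5, the metabotropic receptor linked to NMDA receptors through Homer and Shank (−0.96), and Rest, a repressor of neuronal genes (−0.43), were lower too. Rest was also dim, with group means of 5.56 to 6.0, and the same limit applies.
With age, Slc7a10 rose in the VB of controls (0.79, adjusted p = 0.0271) and embBE mice (1.21, 0.00283) and in the embBE dLGN (0.77, 0.0207), and Nrg1 rose in the VB of both (0.66 and 0.77). Grm5 fell in the dLGN of controls (log2 difference −1.23, adjusted p = 0.0339) and embBE mice (−0.88, 0.0425). After loss of the eyes 2 of the 32 met the study's threshold: Lin7b, a scaffold partner in receptor trafficking, in the VB at P0 (−0.71), and Reln in the dLGN at P0 (−1.07). At that threshold 0.726% of all genes passed in the VB at P0 and 0.445% in the dLGN at P0. The Reln difference rested on 2 control arrays, at 8.71 and 10.4, and the lower lay within the embBE range (8.21 to 8.93, n = 4). Neither gene passed adjustment (adjusted p = 0.679 and 0.851).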

How the data were processed

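Gene expression was measured on 24 Affymetrix GeneChip mouse 3′ expression arrays. The authors copied the RNA in 2 rounds of amplification, hybridized it and normalized the signals with RMA in Partek and Matlab (the RMA version is not given in the sources used here), and they deposited log2 values, which were used as deposited. The number of arrays limits the precision. Probe sets were named from the platform annotation, with symbols updated by Entrez number: 34958 had 1 symbol, 932 several and 9211 none. The brightest probe set by mean over the arrays stood for each of 18194 genes.

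Group means were estimated in R 4.3.3 by the lmFit and eBayes functions of limma 3.58.1, over the 12 arrays of a nucleus for treatments and days. VB was set against dLGN over 24 arrays with the label numbers as a random block (duplicateCorrelation, consensus correlation −0.0196). Same-numbered arrays did not deviate together throughout (correlation of deviations −0.552 to 0.718, above 0.1 in 3 of 11 pairs). A gene was called at a Benjamini-Hochberg adjusted p under 0.05, or for embBE also at the study's fold of 1.5 and p under 0.05, taken as unadjusted. The fit was also run on simulated data with independent noise and no correlation within blocks. That run does not bear on the block or on the unequal spread of the arrays. Sign-flip and permutation tests were exact. The alternatives were other probe sets or their mean, the dimmer genes (mean under 6.20) left out, median centring, cyclic loess, eBayes with trend and robust, other arrays in the fit, blocks, and each array left out. Array SD as a covariate, a fit without the 5 arrays of lowest SD, the sign-flip tests and the permutation test of each member between days were added after the data were seen. The members, gene lists and markers were chosen with earlier results of these data known. Genes were named by rule: all members, the 3 closest patterns to each, and from the list around the receptor up to 5 called genes a direction and comparison. Other members of the receptor family were not analysed here. Figures were drawn with matplotlib 3.10.9.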

Additional observations from a re-analysis of the deposited data

How the results depend on the processing

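The Grin3a difference between nuclei at P4 was called in every refit on the brightest probe set and with the mean of the probe sets, from 2.02 to 2.53 in controls and from 1.95 to 2.25 in embBE mice with single arrays left out. Of the members called between VB and dLGN, 1 in controls at P0 became 0 with the mean of the probe sets or cyclic loess and 2 with the array SD as a covariate or without the arrays of narrow spread. The 2 in embBE mice at P0 became 1 with that covariate or without those arrays, and the 2 at P4 became 1 with it or with median centring. With single arrays left out the counts ranged from 0 to 1, 1 to 2 (control P4), 1 to 2 and 1 to 2. For P4 minus P0 in the dLGN the count of 0 became 1 (Grin2d) with the covariate in both treatments and without the dimmer genes in embBE mice. It ranged from 0 to 1 in embBE mice and in the control VB (Grin3b without 36_3), and from 0 to 1 for embBE in the VB at P4. The change with age of the signal of Grin2a minus that of Grin2b was −0.37 in the VB and 0.44 in the dLGN with probe set 1442370_at, and ranged from −0.36 to −0.22 in the VB and from 0.17 to 0.40 in the dLGN with arrays left out. The cause was not tested in any of these.

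Directions that turned belonged to values that were not called, except for Grin2d between nuclei in controls at P0, 0.15 on probe set 1421393_at. That probe set also gave 0.16 at P4, 0.12, 0.12 and 0.12 for P4 minus P0 (control VB, control and embBE dLGN) and 0.18 and 0.18 for embBE in the dLGN at P0 and P4. Grin2d in the control VB with age turned to 0.037 with the mean of the probe sets, 0.16 with the covariate, 0.20 without narrow arrays, and ranged from −0.37 to 0.20 with single arrays left out. For embBE it turned to 0.028 with the covariate in the VB at P0 and to 0.0047 with the mean in the dLGN at P4. Grin3a in the control dLGN with age was 0.67 on 1458378_at. Grin2b between nuclei was 0.069 on 1431700_at in controls at P0. In controls at P4 it was −0.10 with the mean, −0.078 with cyclic loess, −0.24, −0.14 and −0.0074 on the other probe sets, and from −0.17 to 0.18 with arrays left out. In embBE mice at P4 it was 0.007 with the covariate.

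With the first label number as a replicate block, 0 members met the study's threshold in each embBE comparison, as without it, and Grin2d in the VB at P0 was −0.14. Without the replicate block the counts between nuclei were also 1, 1, 2 and 2. Of 1216 refits of the 50 member differences given only as ranges, 73 had the other sign and 2 passed: Grin3b as above and Grin2a between nuclei in embBE mice at P4 without the narrow arrays (−0.40).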
